A study of Homo sapiens with 8 samples.

Results

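Antisense long noncoding RNAs were examined by RNA-seq in breast epithelial cells with and without overexpression of MALINC1. They were taken by name, as the rows of the expression table whose gene symbol ends in a hyphen and AS, with or without a number, which gave 150 of 13842 rows. MCF10A is an established line of non-transformed breast epithelial cells, and DCIS.COM is a line related to it that serves as a model of ductal carcinoma in situ. MALINC1 is a long noncoding RNA, pLOC is the lentiviral vector that carried it, and both cell lines were stably transduced with either vector. The 4 groups, MCF10A pLOC-empty, MCF10A pLOC-MALINC1, DCIS.COM pLOC-empty and DCIS.COM pLOC-MALINC1, held 2 libraries each. The lines were grown in different media. Both media held horse serum, to which EGF, hydrocortisone, insulin and cholera toxin were added for MCF10A, while no other supplement is named for DCIS.COM. The line and its medium therefore cannot be told apart. No source states that the replicates were separate cultures, and p-values therefore measure the spread between these libraries, which may be technical.

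An antisense RNA is transcribed from the strand opposite to a named gene, its sense gene, and is spliced and processed much like an mRNA without encoding a known protein. Many start next to the promoter of the sense gene and run away from it, while others start downstream and run back across its exons. Antisense RNAs of both kinds have been described that raise or lower the sense gene, that bind proteins or microRNAs elsewhere in the cell, or that have no known role, and several are studied in breast and other cancers.

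The libraries held between 20604377 and 37550457 reads on the genes of the table, and RN7SL1 and RN7SL2 took 8.22% to 15.7% of them. MALINC1 itself stood at 1.0 and 1.51 CPM (reads of a gene scaled to a common library size) with pLOC-empty and at 13.2 and 11.7 CPM with pLOC-MALINC1 in MCF10A, and at 1.35 and 1.15 against 24.5 and 19.2 CPM in DCIS.COM. All 7 basal epithelial markers of a fixed list were listed in both lines, with a summed level of 26940 to 36310 CPM in MCF10A libraries and 2480 to 2687 CPM in DCIS.COM libraries. Keratins made up most of this sum. TP63 stood at 5.24 and 4.61 CPM in MCF10A pLOC-empty and at 55.8 and 57.4 CPM in DCIS.COM pLOC-empty. With pLOC-MALINC1 it stood at 41.68 and 40.12 CPM in MCF10A and at 49.14 and 49.98 CPM in DCIS.COM. The TP63 gap between the lines was thus much smaller with that vector. Of 6 luminal markers 5 were listed, with sums of 1287 to 1654 CPM in MCF10A and 3249 to 3498 CPM in DCIS.COM. The keratins KRT8 and KRT18 made up most of these sums. ESR1 had 1.7 to 2.0 CPM in MCF10A and 2.2 to 3.8 CPM in DCIS.COM. GATA3 had 6.3 to 6.9 against 6.0 to 9.8 CPM, and FOXA1 8.6 to 16.7 against 24.6 to 35.1 CPM. The part of these marker differences in the line comparisons was not tested. Of 4 leukocyte and 4 fibroblast markers, 1 of each was listed. Levels in bulk RNA cannot tell fewer cells of a type from less RNA per cell.

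The antisense RNAs together took 0.0622% to 0.0863% of the reads of a library, and every DCIS.COM library lay above every MCF10A library in this share. All 150 passed the low-value filter of 0.5 CPM in at least 2 libraries, 137 of them in each cell line taken alone, 3 through MCF10A only and 10 through DCIS.COM only. The filter itself favours a difference between the lines in these 13. Those that passed through DCIS.COM were SLCO4A1-AS1, VIM-AS1, USP2-AS1, SNAI3-AS1, FOXN3-AS1, HOXA-AS3, ASH1L-AS1, DLGAP1-AS2, DOCK8-AS1 and ZNF687-AS1, and those that passed through MCF10A were FAM83A-AS1, TRHDE-AS1 and SH3RF3-AS1. The 0.5 CPM filter removed no row, since each row of the deposited table reached at least 0.916 CPM in its second-highest library. PRKCQ-AS1, AFAP1-AS1 and KTN1-AS1 lay below that level in every MCF10A library, so selection favours a line difference beyond these 13. Levels of the 150 were low, with a median of 1.83 CPM over the 8 libraries against 22.1 CPM for all rows. Of the 150, 83 had a mean under 2 CPM, 56 a mean of 2 to 10 CPM and 11 a mean of 10 CPM or more. The 3 most abundant ones held 40.4% of all antisense reads and the first 10 held 55.3%.

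WAC-AS1, the partner of the nuclear adaptor gene WAC, was the most abundant. It had 127 and 125 CPM in MCF10A pLOC-empty, 165 and 171 CPM in MCF10A pLOC-MALINC1, 139 and 133 CPM in DCIS.COM pLOC-empty and 148 and 151 CPM in DCIS.COM pLOC-MALINC1. In both lines its pLOC-MALINC1 libraries lay above the pLOC-empty ones. FGD5-AS1, whose sense gene FGD5 was not in the table, had 120 and 115 CPM in MCF10A pLOC-empty and 89.3 and 89.6 CPM in MCF10A pLOC-MALINC1, against 66.8 and 65.3 CPM and 73.5 and 76.8 CPM in the same 2 groups of DCIS.COM. It was lower in every DCIS.COM library than in every MCF10A library. OIP5-AS1, a cytoplasmic RNA that lies opposite the kinetochore gene OIP5 and is also known as Cyrano, had 46.7 to 61.3 CPM in the MCF10A libraries and 62.8 to 79.2 CPM in the DCIS.COM libraries. THAP9-AS1, OTUD6B-AS1, SH3PXD2A-AS1, PSMA3-AS1, FRMD6-AS1, DHRS4-AS1 and NR2F1-AS1 followed. None of the 10 changed by more than 2-fold with the MALINC1 vector, and among them only NR2F1-AS1 did so between the lines.

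**Figure D1:**
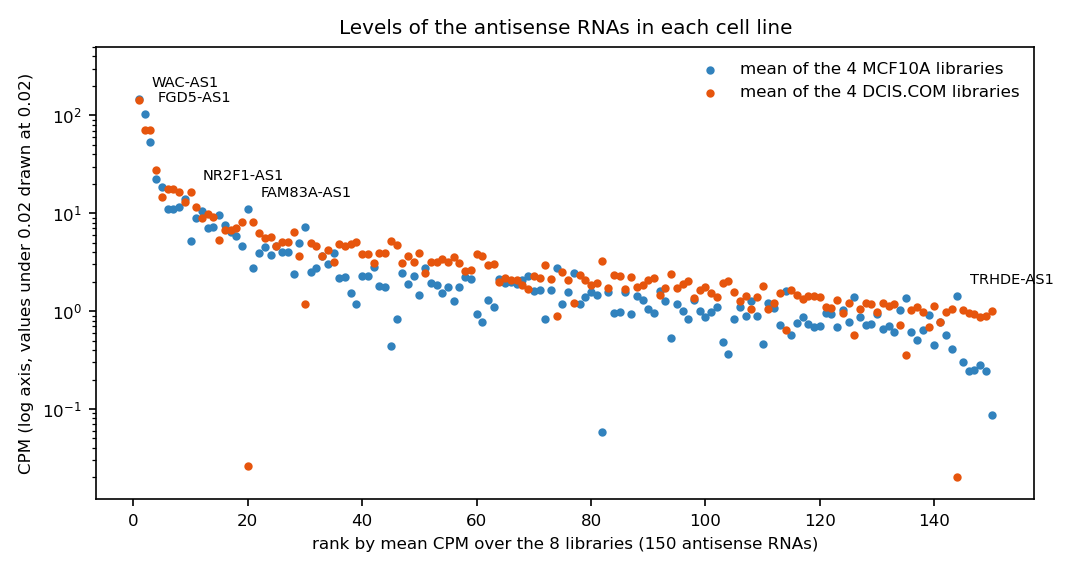
Mean CPM of the 150 antisense RNAs (log axis) by rank of their mean over the 8 libraries, with the mean of the 4 MCF10A libraries in blue and that of the 4 DCIS.COM libraries in orange. WAC-AS1 and FGD5-AS1 lie far above the median of 1.83 CPM, and FAM83A-AS1 and TRHDE-AS1 have DCIS.COM points at or near the lower edge.

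In GENCODE annotation on GRCh37, 142 antisense RNAs were matched by symbol, 140 of them as lncRNA genes and 2 as pseudogenes. The position relative to the sense gene could be read for 140. In 42 the starts lay within 1000 bp of each other on opposite strands, and 98 overlapped the sense gene with starts farther apart. Exons of the sense gene and the antisense RNA overlapped in 116 and did not in 24. The strand setting of the read counting is not given in the sources used here, so that reads from overlapping exons of a pair may have been assigned to either gene. Annotated exons of all transcripts were used, a wider set than the gene models on which the reads were counted.

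Per kilobase of annotated exon, the antisense RNA stood at a median of 13.3% of its sense gene over 122 pairs. It was under 10% of the sense level in 53 pairs and above the sense gene in 14. MNX1-AS1, at 2.69 CPM per kb, exceeded the homeobox gene MNX1 at 0.462 CPM per kb, and WAC-AS1, at 42.8 CPM per kb, exceeded WAC at 7.63 CPM per kb. SLC9A3-AS1 had 0.242 CPM per kb beside 0.0966 CPM per kb for SLC9A3, a sodium-hydrogen exchanger of epithelia.

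The first comparison asked which antisense RNAs changed with MALINC1 overexpression in MCF10A. At a Benjamini-Hochberg adjusted p below 0.01 (limma) together with more than a 2-fold change, 11 of 150 were called, while 5.5% of all rows were called. Of the 11, 5 were higher and 6 lower, beside 2.99% and 2.51% of all rows. At a mean under 2 CPM 8.43% of the antisense RNAs were called, against 13.7% of all rows of that level. At 2 to 5 CPM the shares were 9.09% and 11.8%, and at 5 CPM or more 0% and 3.38%. Without the demand on fold change, 29 of 150 passed, or 19.3%, against 39.6% of all rows. PRKCQ-AS1, KTN1-AS1, MNX1-AS1, VPS9D1-AS1 and FOXN3-AS1 rose. SLC9A3-AS1, HOXA-AS2, DCST1-AS1, DLGAP1-AS1, MYLK-AS1 and SCAMP1-AS1 fell. Fold changes are differences of the deposited log2 values, which include a prior count of 2 reads and so understate the change of low genes. The median log2 fold change over the 150 was -0.25, against 0.00 over all rows, and 99 lay below 0. Among members with a mean under 2 CPM the median was -0.29, and among all rows of that level it was -0.11.

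PRKCQ-AS1 had 0.103 and 0.0886 CPM (5 reads in all) in MCF10A pLOC-empty and 0.669 and 0.907 CPM (48 reads) in MCF10A pLOC-MALINC1. In DCIS.COM it had 5.13 and 5.06 CPM with pLOC-empty and 5.21 and 5.20 CPM with pLOC-MALINC1. The MCF10A groups did not overlap, both lay far below DCIS.COM, and the DCIS.COM groups lay close together. The log2 fold change was 2.35 in MCF10A (SE 0.20, adjusted p = 1.28e-06) and 0.03 in DCIS.COM (SE 0.20, adjusted p = 0.918), and the ratio of reads in MCF10A was 7.94, with a 95% interval from counting error alone of 3.18 to 25.6. Its sense gene PRKCQ, which encodes protein kinase C theta, a kinase known from T-cell receptor signaling, rose in the same libraries, from 0.069 and 0.0443 CPM to 0.919 and 0.718 CPM (log2 fold change 2.80, SE 0.21, adjusted p = 3.53e-07). PRKCQ had 3 reads in the pLOC-empty libraries and 52 in the others, a ratio of 14.3 with a counting interval of 4.64 to 71.8. PRKCQ-AS1 lies on the plus strand of chromosome 10 from 6622381 to 6658883 in GRCh37, its start is 118 bp from that of PRKCQ on the opposite strand, and no annotated exons of the pair overlap.

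MNX1-AS1, which starts 142 bp from MNX1 with no overlap of exons, had 0.517 and 0.398 CPM with pLOC-empty and 1.34 and 1.06 CPM with pLOC-MALINC1 in MCF10A (log2 fold change 1.26, SE 0.19, adjusted p = 0.000131). MNX1, a transcription factor of motor neuron and pancreas development, had 0.724 and 1.02 CPM against 0.613 and 0.831 CPM in the same groups, which overlapped (log2 fold change -0.24, SE 0.21, adjusted p = 0.359). VPS9D1-AS1 had 0.586 and 0.886 CPM with pLOC-empty and 1.59 and 2.04 CPM with pLOC-MALINC1 (log2 fold change 1.24, SE 0.22, adjusted p = 0.000459), and VPS9D1 had a log2 fold change of -0.54 (adjusted p = 0.0112). KTN1-AS1 rose from 0.276 and 0.133 CPM to 0.892 and 0.529 CPM (log2 fold change 1.51, SE 0.31, adjusted p = 0.00149), while KTN1, the gene of the kinesin-binding membrane protein kinectin, stood at 358 to 365 CPM in all 4 libraries. FOXN3-AS1, named after its values were seen, had 1 read with pLOC-empty and 9 with pLOC-MALINC1 (ratio 7.44, counting interval 1.03 to 326).

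Among the falls, SLC9A3-AS1 had 1.28 and 1.55 CPM with pLOC-empty and 0.334 and 0.416 CPM with pLOC-MALINC1 in MCF10A. The groups did not overlap, and the log2 fold change was -1.73 (SE 0.29, adjusted p = 0.000282). SLC9A3 fell with it, from 0.621 and 0.664 CPM to 0.139 and 0.151 CPM (log2 fold change -1.72, SE 0.28, adjusted p = 0.000287). The 2 genes share 830 bases of annotated exon, so their reads may not be independent. HOXA-AS2, which is transcribed between genes of the HOXA cluster of body-axis regulators, fell from 4.17 and 3.94 CPM to 1.23 and 1.81 CPM (log2 fold change -1.40, SE 0.23, adjusted p = 0.000249). DCST1-AS1 fell from 3.31 and 3.37 CPM to 1.31 and 1.74 CPM (log2 fold change -1.11, SE 0.20), and DLGAP1-AS1 from 2.45 and 2.79 CPM to 1.23 and 1.21 CPM (log2 fold change -1.06, SE 0.17). Neither HOXA-AS2, DCST1-AS1 nor DLGAP1-AS1 has a sense gene in the table. SCAMP1-AS1, outside the naming rule and named after its values were seen, had a log2 fold change of -1.0, and its neighbour SCAMP1, which starts 104 bp away, one of -0.03.

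With the fit restricted to the 4 MCF10A libraries 3 antisense RNAs were called. The fold changes stayed the same in that fit, and among the named ones the calls of MNX1-AS1 (adjusted p = 0.0113), DCST1-AS1 (0.0124), HOXA-AS2 (0.0124), VPS9D1-AS1 (0.023), KTN1-AS1 (0.0375) and MYLK-AS1 (0.043) were lost. With a pseudocount of 1 CPM 1 was called, and with quantile normalization 4 higher and 2 lower. VPS9D1-AS1 was not called without MCF10A pLOC-empty replicate 1 (0.97 on the log2 scale), DCST1-AS1 without pLOC-MALINC1 replicate 1 (-0.91), DLGAP1-AS1 without pLOC-empty replicate 2 (-0.97), and KTN1-AS1 without pLOC-empty replicate 2 (1.13, adjusted p = 0.0182) or pLOC-MALINC1 replicate 1 (1.17, adjusted p = 0.0233).

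The same comparison was made in DCIS.COM, where 4 of 150 antisense RNAs were called, 0 higher and 4 lower, while 4.53% of all rows were called, 1.44% higher and 3.08% lower. Without the demand on fold change 10 of 150 passed, against 33.2% of all rows. SLCO4A1-AS1, ITGB2-AS1, MYLK-AS1 and SNAI3-AS1 fell. By limma, 0 passed as higher, with 14 higher at an unadjusted p below 0.05 and 0 by limma voom on the recovered reads. The median log2 fold change over the 150 was 0.00, as many lay above 0 as below, 75 each, and the median of all rows was 0.01. MYLK-AS1 was the single member called in both lines, and 14 were called in either. Across the 150, the log2 fold changes in the 2 lines, which share no library, had a Pearson r of -0.01 and a Spearman rho of 0.00, given as a description over genes, each line with 2 libraries a vector.

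SLCO4A1-AS1 had 5.36 and 5.01 CPM in DCIS.COM pLOC-empty and 1.60 and 1.03 CPM in DCIS.COM pLOC-MALINC1 (log2 fold change -1.95, SE 0.38, adjusted p = 0.00116). In MCF10A the 4 libraries held 7 reads between them. SLCO4A1, an organic anion transporter, moved the other way in the same DCIS.COM libraries, from 24.3 and 22.5 CPM to 30.3 and 27.9 CPM (log2 fold change 0.31, SE 0.08, adjusted p = 0.00796), and rose in MCF10A from 5.03 and 4.78 CPM to 9.95 and 10.5 CPM (log2 fold change 1.05, SE 0.08, adjusted p = 5.66e-07). The 2 genes overlap over 346 bases of annotated exon.

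ITGB2-AS1 had 2.71 and 2.58 CPM in DCIS.COM pLOC-empty and 0.961 and 0.739 CPM in DCIS.COM pLOC-MALINC1 (log2 fold change -1.57, SE 0.22, adjusted p = 0.000107). In MCF10A it had 2.28 and 1.55 CPM against 0.947 and 0.944 CPM, a log2 fold change of -0.94 (SE 0.22, adjusted p = 0.00363), short of 2-fold. Its sense gene ITGB2, the beta chain of the leukocyte integrins, fell in both lines. ITGB2 went from 7.0 and 5.39 CPM to 0.437 and 0.384 CPM in DCIS.COM (log2 fold change -3.69, SE 0.14) and from 30.8 and 30.4 CPM to 7.41 and 7.48 CPM in MCF10A (log2 fold change -2.03, SE 0.14). The pair shares 303 bases of annotated exon, and the part that shared reads play was not tested.

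MYLK-AS1 had 1.38 and 1.15 CPM against 0.752 and 0.453 CPM in MCF10A (log2 fold change -1.02, SE 0.28, adjusted p = 0.00942) and 1.54 and 1.48 CPM against 0.495 and 0.828 CPM in DCIS.COM (log2 fold change -1.15, SE 0.28, adjusted p = 0.00554). MYLK, the smooth muscle myosin light chain kinase, shifted in opposite directions in the lines, from 13.1 and 12.6 CPM to 21.8 and 24.1 CPM in MCF10A (log2 fold change 0.83, SE 0.08) and from 78.0 and 85.2 CPM to 38.5 and 44.3 CPM in DCIS.COM (log2 fold change -0.98, SE 0.08). MYLK-AS1 was not called in MCF10A without pLOC-empty replicate 1 (-0.90, adjusted p = 0.0629), pLOC-empty replicate 2 (-1.14, adjusted p = 0.0241), pLOC-MALINC1 replicate 2 (-0.69, adjusted p = 0.101) or either DCIS.COM pLOC-empty library (-1.02, adjusted p of 0.0162 and 0.0161), and with the replicate number as a block its adjusted p was 0.0119. In DCIS.COM the MYLK-AS1 call was lost without either pLOC-empty replicate (-1.12 and -1.17) or without pLOC-MALINC1 replicate 1 (-0.81).

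SNAI3-AS1, opposite the Snail family repressor gene SNAI3, which was not in the table, had 1.21 and 1.29 CPM against 0.495 and 0.591 CPM in DCIS.COM (log2 fold change -1.11, SE 0.27, adjusted p = 0.00478). In MCF10A it had 0.207 and 0.133 CPM against 0.334 and 0.302 CPM. The SNAI3-AS1 call in DCIS.COM was lost without any 1 of the 4 libraries of that line, with log2 fold changes of -1.22 to -1.0. SLCO4A1-AS1 was not called without DCIS.COM pLOC-empty replicate 1 (-1.90, adjusted p = 0.0144), pLOC-empty replicate 2 (-2.0, adjusted p = 0.0121) or pLOC-MALINC1 replicate 2 (-1.65, adjusted p = 0.0197), and the number of calls in DCIS.COM was 1 without either pLOC-empty replicate.

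**Figure D2:**
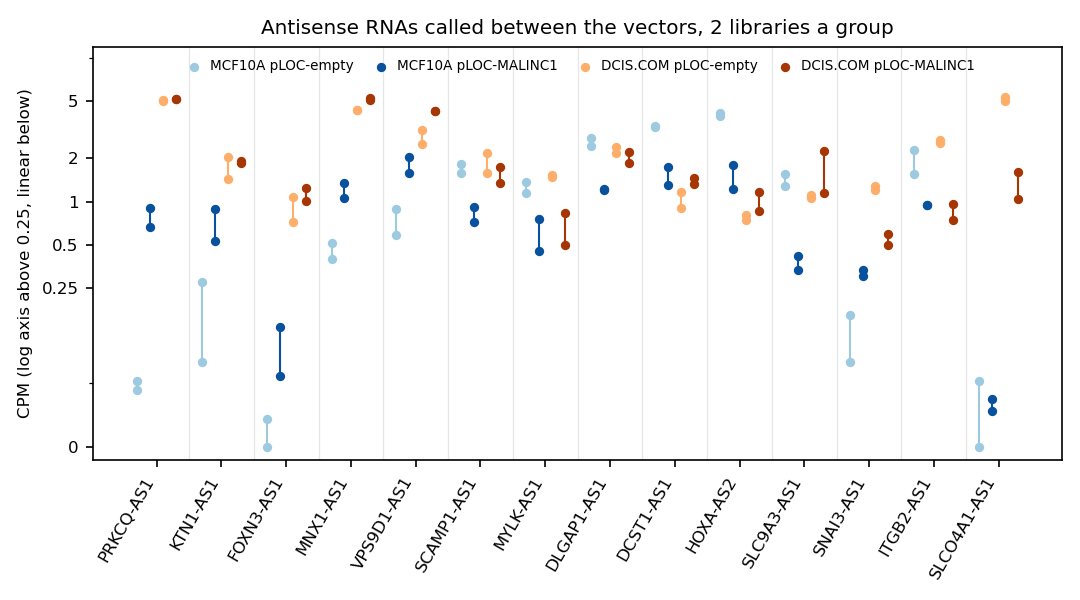
CPM in each library of the 14 antisense RNAs called between pLOC-MALINC1 and pLOC-empty in either cell line, 2 points a group joined by a line. The axis is logarithmic above 0.25 CPM and linear below, and PRKCQ-AS1 shows 2 MCF10A groups far below DCIS.COM, where it stood above 5 CPM in all 4 libraries.

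**Figure D3:**
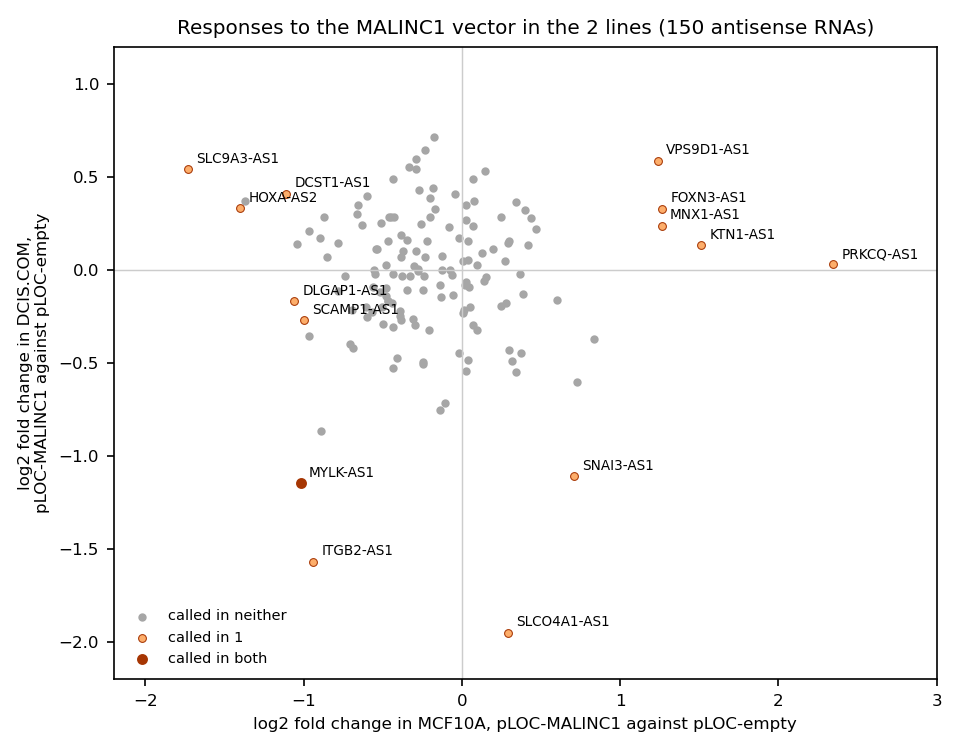
Log2 fold change of pLOC-MALINC1 against pLOC-empty in MCF10A (horizontal) and DCIS.COM (vertical) for the 150 antisense RNAs, colored by the number of lines in which they were called. MYLK-AS1 alone was called in both, ITGB2-AS1 lies below 0 in both, and PRKCQ-AS1 lies at 2.35 in MCF10A and 0.03 in DCIS.COM.

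The difference between the 2 lines in their response to MALINC1 was tested directly. It was called for 11 of 150 antisense RNAs, 6 with a higher response in DCIS.COM and 5 with a lower one, against 9.2% of all rows, 3.98% higher and 5.22% lower. At any fold change 17 passed, against 35.9% of all rows. SLC9A3-AS1 (2.28, SE 0.40, adjusted p = 0.000554), HOXA-AS2 (1.73, SE 0.32, adjusted p = 0.000751) and DCST1-AS1 (1.52, SE 0.29, adjusted p = 0.000875) fell in MCF10A and had values of 0.54, 0.33 and 0.41 in DCIS.COM, which did not pass the test. PRKCQ-AS1 had a difference of -2.32 and SLCO4A1-AS1 one of -2.24. SLCO4A1-AS1 had 3 and 4 reads in the MCF10A groups, too few to show a fall there. The log2 responses of SNAI3-AS1, 0.71 in MCF10A and -1.11 in DCIS.COM, differed by -1.82 (SE 0.38, adjusted p = 0.00171).

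EPB41L4A-AS1, a host transcript of a small nucleolar RNA, was outside the naming rule and is named after its values were seen. It had 4.76 and 5.89 CPM against 8.64 and 8.95 CPM in MCF10A, and 11.1 and 12.4 CPM against 8.21 and 7.24 CPM in DCIS.COM. The MALINC1 libraries were thus the higher ones in MCF10A and the lower ones in DCIS.COM, with log2 fold changes of 0.72 (SE 0.12) and -0.60 (SE 0.12), both with an adjusted p below 0.01 but short of 2-fold, and a difference of -1.33 (SE 0.17, adjusted p = 5.02e-05). Its sense gene EPB41L4A, a FERM domain protein gene, had log2 fold changes of -0.79 (SE 0.10) and 0.16 (SE 0.10). The 2 genes share 2200 bases of annotated exon. ASB16-AS1, HMGN3-AS1, IQCH-AS1 and MNX1-AS1 made up the rest of the 11, with differences of 1.01, 1.18, 1.07 and -1.02.

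Between the cell lines, far more antisense RNAs differed. With pLOC-empty 41 of 150 were called, 33 higher and 8 lower in DCIS.COM, while 28.6% of all rows were called, 15.6% higher and 13% lower. With pLOC-MALINC1 53 were called, 48 higher and 5 lower, against 26.6% of all rows, 14.4% higher and 12.2% lower. At any fold change 81 passed with pLOC-empty and 91 with pLOC-MALINC1, against 73.9% and 73% of all rows. With both vectors 30 were called, 26 higher and 4 lower in DCIS.COM, which is 73.2% of the calls with pLOC-empty and 56.6% of those with pLOC-MALINC1. Over all rows 2821 were called with both, 71.3% and 76.5% of the calls. Among the 137 that passed the filter in each line alone, 26 were higher and 5 lower with pLOC-empty and 39 higher and 2 lower with pLOC-MALINC1. The 137 still include PRKCQ-AS1, AFAP1-AS1 and KTN1-AS1, which lay below 0.916 CPM in every MCF10A library. Taking the 137 therefore does not remove the effect of selection. The log2 differences with the 2 vectors, which come from separate libraries, had a Pearson r of 0.852 and a Spearman rho of 0.748 over the 150 genes.

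Most members lay higher in DCIS.COM, called or not. The median log2 difference was 0.49 with pLOC-empty and 0.73 with pLOC-MALINC1, against 0.03 and 0.01 for all rows, and 112 and 122 of 150 lay above 0. Rows of low level leaned the same way. Among rows with a mean under 2 CPM the median was 0.64 with each vector, against 0.50 and 0.83 for the 83 antisense RNAs of that level. At 2 to 5 CPM the medians were 0.26 and 0.34 for all rows and 0.62 and 0.83 for 44 antisense RNAs, and at 5 CPM or more they were -0.03 and -0.07 for all rows and 0.28 and 0.23 for 23 antisense RNAs. The 280 other rows annotated as lncRNA had medians of 0.41 and 0.48. At a mean under 2 CPM 20.5% and 36.1% of the antisense RNAs were called higher, against 37.2% and 37.7% of all rows. At 2 to 5 CPM these shares were 29.5% and 36.4% against 28.2% and 30.1%. At 5 CPM or more they were 13% and 8.7% against 10.5% and 8.7%. Quantile normalization, which forces the libraries to 1 distribution, lowered the antisense medians to 0.17 and 0.40 and gave 23 higher and 12 lower calls with pLOC-empty and 25 higher and 7 lower with pLOC-MALINC1.

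PRKCQ-AS1, MNX1-AS1 and SLCO4A1-AS1 stood among the largest excesses in DCIS.COM, with log2 differences of 4.95, 3.08 and 5.56 with pLOC-empty and 2.63, 2.05 and 3.32 with pLOC-MALINC1. SLCO4A1-AS1 had 3 reads in the MCF10A pLOC-empty libraries against 220 in DCIS.COM pLOC-empty, a ratio of 89.2 with a counting interval of 30.1 to 436, and its fitted log2 difference depends on the prior count. VIM-AS1, opposite the vimentin gene, had 0.266 to 0.448 CPM in the MCF10A libraries and 1.71 to 2.29 CPM in the DCIS.COM libraries (log2 difference 2.47 and 2.10, SE 0.26). VIM itself, an intermediate filament of mesenchymal cells, had 32.4 to 66.9 CPM against 389 to 589 CPM (log2 difference 3.15 and 3.53, SE 0.05). SERTAD4-AS1 had 0.585 to 0.966 CPM against 3.20 to 4.25 CPM (2.08 and 2.20), and AFAP1-AS1, an RNA much studied in tumors and opposite an actin filament-associated gene, 0.474 to 0.604 CPM against 1.57 to 2.94 CPM (2.27 and 1.70). NR2F1-AS1 had 4.21 to 6.76 CPM against 15.5 to 18.3 CPM (1.48 and 1.88), beside the nuclear receptor gene NR2F1 with 2.79 to 3.85 CPM against 17.5 to 20.8 CPM (2.21 and 2.63). The lines did not overlap in VIM-AS1, SERTAD4-AS1, AFAP1-AS1 or NR2F1-AS1, though SLCO4A1-AS1 and VIM-AS1 passed the filter through DCIS.COM only. PRKCQ-AS1 and AFAP1-AS1 lay below 0.916 CPM in every MCF10A library, so selection favours their excess as well.

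FAM83A-AS1, TRHDE-AS1, HLA-F-AS1 and SH3RF3-AS1 were lower in DCIS.COM with both vectors, all but HLA-F-AS1 having passed the filter through MCF10A only. FAM83A-AS1 had 9.39 to 12.6 CPM in the MCF10A libraries, 1232 reads in all, and 3 reads in the 4 DCIS.COM libraries, a ratio of 398 with a counting interval of 136 to 1935. FAM83A, a gene linked to EGFR signaling, had 288 to 345 CPM against 0.334 to 0.839 CPM. TRHDE-AS1 had 1.28 to 1.66 CPM (163 reads) in MCF10A and no reads in any DCIS.COM library, so that it was at least 52.7-fold higher in MCF10A, taking 3 reads over the 4 DCIS.COM libraries as the limit. TRHDE, a peptidase that degrades thyrotropin-releasing hormone, had 3.10 to 4.07 CPM in MCF10A and 1 read in DCIS.COM.

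HLA-F-AS1 had 6.74 to 7.66 CPM in MCF10A and 0.68 to 1.63 CPM in DCIS.COM (log2 difference -2.30 and -2.90, SE 0.20). HLA-F, a non-classical class I antigen gene, had 13.6 to 15.7 CPM against 10.8 to 13.0 CPM, with log2 differences of -0.12 (adjusted p = 0.179) and -0.49 (adjusted p = 6.96e-05). SH3RF3-AS1 had 1.0 to 2.04 CPM against 0.291 to 0.525 CPM (-1.84 and -1.57, SE 0.27). SH3RF3, a ubiquitin ligase gene that starts 275 bp away with no shared exon, had 6.13 to 12.5 CPM against 2.07 to 2.75 CPM (-2.15 and -1.56).

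**Figure D4:**
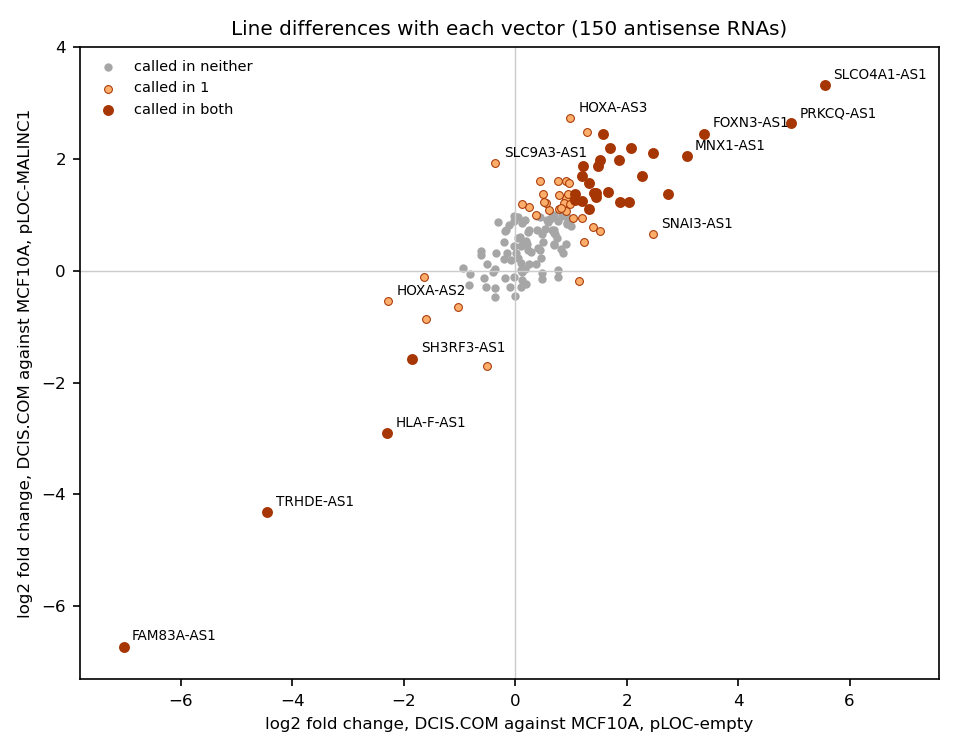
Log2 difference of DCIS.COM against MCF10A with pLOC-empty (horizontal) and with pLOC-MALINC1 (vertical) for the 150 antisense RNAs. The 30 called with both vectors lie on the same side of 0 in each, 26 above and 4 below, with FAM83A-AS1 and TRHDE-AS1 farthest below.

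The sense gene was in the table for 129 antisense RNAs and not for 21. With MALINC1 in MCF10A 8 of these antisense RNAs and 8 sense genes were called, 6.2% of each against 5.5% of all rows, and in the 2 pairs with both called, PRKCQ-AS1 with PRKCQ and SLC9A3-AS1 with SLC9A3, the directions were the same. In DCIS.COM ITGB2-AS1 and ITGB2 were the single pair with both called. Between the lines both genes were called in 15 pairs with pLOC-empty, of which 14 pairs shared the direction, and in 21 pairs with pLOC-MALINC1, of which 20 did. Taken singly, 27.1% of the antisense RNAs and 27.1% of the sense genes were called with pLOC-empty, against 28.6% of all rows, and 36.4% and 25.6% with pLOC-MALINC1, against 26.6%. Among the pairs with both genes called, the exceptions in direction were EPB41L4A-AS1 and SDCBP2-AS1. EPB41L4A-AS1 was higher in DCIS.COM by 1.14 beside EPB41L4A with -2.30. SDCBP2-AS1, named after its values were seen, had 1.57 beside -3.29 for the syntenin-family gene SDCBP2.

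Over the 129 pairs, the log2 fold changes of antisense RNA and sense gene had a Pearson r of 0.388 in MCF10A and 0.373 in DCIS.COM for the MALINC1 vector, and of 0.662 and 0.703 for the line differences. Spearman's rho was 0.252, 0.198, 0.388 and 0.520. Antisense RNA and sense gene had the same sign, called or not, in 61.2%, 52.7%, 59.7% and 65.1% of the 129 pairs. In the 41 pairs whose starts lay within 1000 bp, Pearson's r was 0.655, 0.431, 0.734 and 0.651, and Spearman's rho 0.436, 0.343, 0.501 and 0.575. In the 19 pairs with no exon overlap Pearson's r was 0.608, -0.03, 0.845 and 0.824, and Spearman's rho 0.333, 0.05, 0.609 and 0.709. The part that shared reads play in these values was not tested. The pairs of a comparison share the same libraries, and PRKCQ-AS1 and FAM83A-AS1 lie far from the other points.

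**Figure D5:**
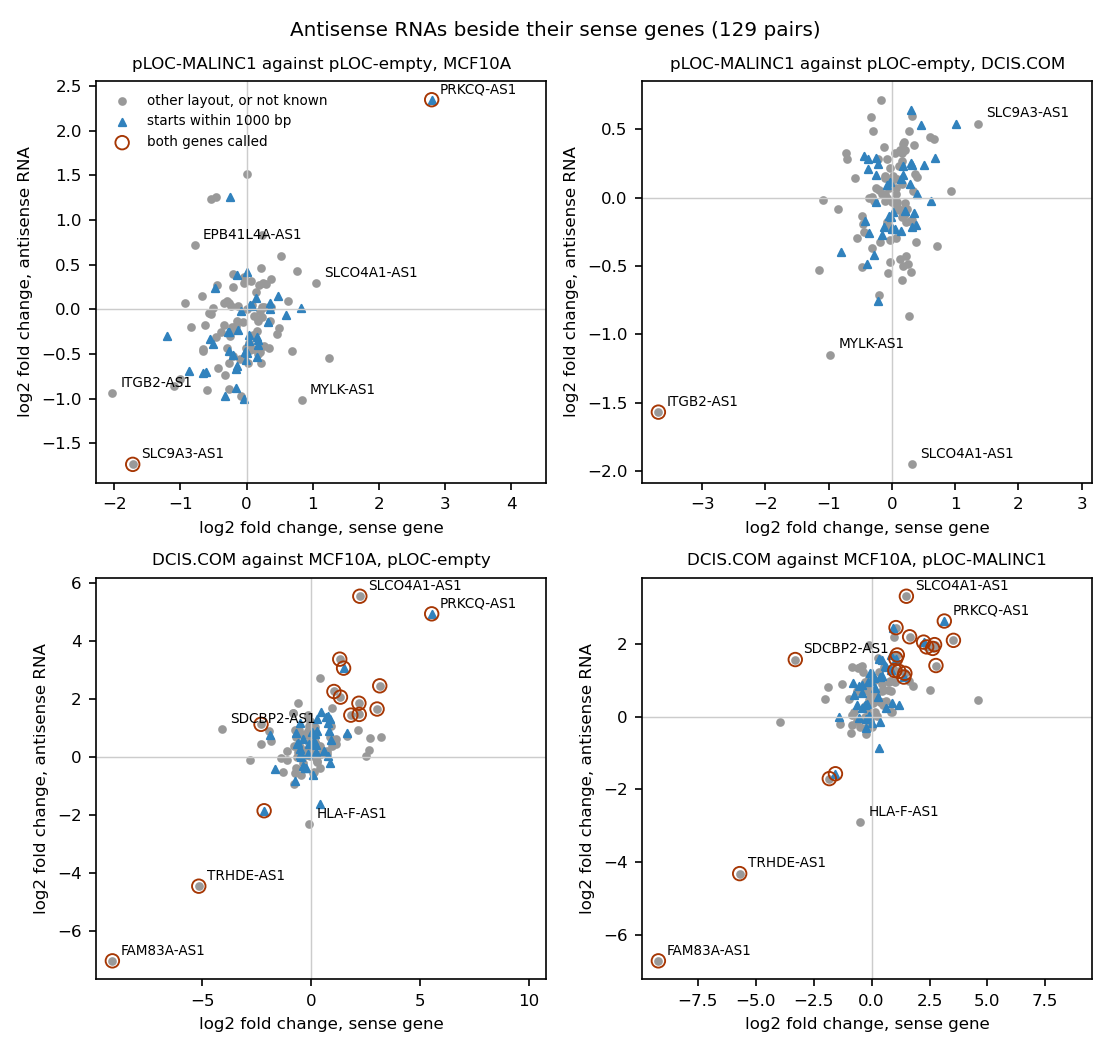
Log2 fold change of the antisense RNA (vertical) against that of its sense gene (horizontal) for 129 pairs in 4 comparisons, with triangles for pairs whose starts lie within 1000 bp and rings for pairs in which both genes were called. All ringed pairs lie in the quadrants of equal direction, apart from 1 in each of the lower panels.

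Of 40 antisense RNAs on a list of those much studied in cancer, 16 were in the table. In MCF10A with MALINC1 PRKCQ-AS1, MNX1-AS1 and VPS9D1-AS1 rose and DLGAP1-AS1 fell, 3 and 1 of 16 where 2.99% and 2.51% of all rows were called, and in DCIS.COM limma and limma voom each called 0, with 3 higher and 3 lower at an unadjusted p below 0.05. Between the lines limma and limma voom each called 7 of the 16 higher in DCIS.COM and 0 lower with each vector, while 3 and 1 were lower at an unadjusted p below 0.05. Among all 150 antisense RNAs 22% and 32% were called higher, and among all rows 15.6% and 14.4%. All rows with a mean under 2 CPM were called higher more often, 37.2% and 37.7% of them, against 20.5% and 36.1% of antisense RNAs of that level. The 7 included TP73-AS1, AFAP1-AS1, PRKCQ-AS1, MNX1-AS1, VPS9D1-AS1 and USP2-AS1 with both vectors, and the median over the 16 was 0.68 and 0.92. USP2-AS1 passed the filter through DCIS.COM only, and PRKCQ-AS1 and AFAP1-AS1 lay below 0.916 CPM in every MCF10A library. Selection therefore favours part of the higher calls. TP73-AS1 had 2.08 to 3.63 CPM in MCF10A and 7.26 to 8.51 CPM in DCIS.COM (1.22 and 1.88), and USP2-AS1 0.189 to 0.362 CPM against 0.621 to 1.38 CPM (1.67 and 1.41). The USP2-AS1 call with pLOC-MALINC1 was lost without MCF10A pLOC-MALINC1 replicate 2 (1.04, adjusted p = 0.023) or DCIS.COM pLOC-MALINC1 replicate 1 (1.04, adjusted p = 0.0269). GABPB1-AS1 was called with pLOC-empty only (1.19 against 0.94) and DDX11-AS1 with pLOC-MALINC1 only (0.50 against 1.38), differences between vectors of -0.25 and 0.87 that did not pass the test. DDX11-AS1 lost its call without any 1 of 7 libraries, with 0.53 without MCF10A pLOC-MALINC1 replicate 2.

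Of 16 HOX cluster antisense RNAs, HOXA-AS2 and HOXA-AS3 were in the table. HOXA-AS2 was lower in DCIS.COM with pLOC-empty (0.746 and 0.812 CPM against 4.17 and 3.94 CPM, log2 difference -2.28, SE 0.23), and HOXA-AS3 was higher there with pLOC-MALINC1 (1.05 and 1.06 CPM against 0.195 and 0.0378 CPM, log2 difference 2.73, SE 0.39). HOXA-AS3 passed the filter through DCIS.COM only, which favours such a difference. With pLOC-empty HOXA-AS3 was higher in DCIS.COM too but was not called, and its difference between vectors was not called. Of 14 antisense RNAs of immune genes 3 were in the table, ITGB2-AS1, HLA-F-AS1 and CD27-AS1. CD27-AS1, opposite a T-cell costimulatory receptor gene, had 2.34 to 3.14 CPM in MCF10A and 4.20 to 5.10 CPM in DCIS.COM. Of 10 antisense RNAs on a list drawn up for cell division and DNA repair genes 5 were in the table. KTN1-AS1 was the only one of them called with MALINC1, in MCF10A. KTN1 encodes the kinesin-binding protein kinectin, so this is not read as a call for a division or repair gene. KTN1-AS1 was also called between the lines with both vectors (2.75 and 1.37, SE 0.31). The call with pLOC-MALINC1 was lost without MCF10A pLOC-MALINC1 replicate 2 (1.03) or either DCIS.COM pLOC-MALINC1 replicate (1.35 and 1.39). MCM3AP-AS1 was called with pLOC-empty (1.24, SE 0.30, adjusted p = 0.00224), and not without MCF10A pLOC-empty replicate 1 (0.83) or DCIS.COM pLOC-empty replicate 2 (1.08).

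Promoter windows of RefSeq, from 250 bases before to 50 after the start of a gene in GRCh38.p14, were found for 117 of the 150 antisense RNAs and 116 of the 129 sense genes. The windows of the antisense RNAs had a median of 24 CpG dinucleotides and 65% G and C, those of the sense genes 28.5 and 67.8%, and all 27305 windows 14 and 58.3%. The AP-1 motif TGANTCA, searched on both strands, lay in 6 of the 117 (5.13%), in 5 of the 116 (4.31%) and in 7.76% of all windows. The CRE motif TGACGTCA, which contains no AP-1 match, lay in 2 (1.71%), 6 (5.17%) and 1.98%. Among the 11 windows of antisense RNAs called with MALINC1 in either line, MYLK-AS1 alone held an AP-1 match and none a CRE match, which says only that these letters are not in those 300 bases. The windows of the members on which the vector comparisons turn are given 5′ to 3′ on the strand of the gene, lower case, with a motif match in capitals, and PRKCQ stands for the pair with PRKCQ-AS1, whose own window was not in the table. They are MYLK-AS1, the one called in both lines, at chr3:123585263-123585562 (plus strand), SLC9A3-AS1 at chr5:472986-473285 (plus strand), HOXA-AS2 at chr7:27121669-27121968 (plus strand), MNX1-AS1 at chr7:157010607-157010906 (plus strand), SLCO4A1-AS1 at chr20:62666572-62666871 (minus strand) and PRKCQ at chr10:6580597-6580896 (minus strand).
MYLK-AS1: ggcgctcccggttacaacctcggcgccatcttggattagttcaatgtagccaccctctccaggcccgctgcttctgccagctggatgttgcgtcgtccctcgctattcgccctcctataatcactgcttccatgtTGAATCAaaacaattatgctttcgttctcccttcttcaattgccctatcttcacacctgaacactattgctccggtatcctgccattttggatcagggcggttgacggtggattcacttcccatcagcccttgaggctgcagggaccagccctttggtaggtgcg
SLC9A3-AS1: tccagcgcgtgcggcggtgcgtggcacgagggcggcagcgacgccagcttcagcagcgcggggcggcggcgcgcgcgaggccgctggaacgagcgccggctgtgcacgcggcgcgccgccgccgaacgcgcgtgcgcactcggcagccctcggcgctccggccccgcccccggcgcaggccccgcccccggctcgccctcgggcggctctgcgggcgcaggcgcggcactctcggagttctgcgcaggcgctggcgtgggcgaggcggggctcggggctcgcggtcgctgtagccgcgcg
HOXA-AS2: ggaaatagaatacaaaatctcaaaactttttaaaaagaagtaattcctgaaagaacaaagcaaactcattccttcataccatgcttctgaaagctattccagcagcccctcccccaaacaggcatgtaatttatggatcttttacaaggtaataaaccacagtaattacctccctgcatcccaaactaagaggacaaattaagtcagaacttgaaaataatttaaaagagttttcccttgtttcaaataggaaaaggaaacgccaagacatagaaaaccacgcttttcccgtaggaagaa
MNX1-AS1: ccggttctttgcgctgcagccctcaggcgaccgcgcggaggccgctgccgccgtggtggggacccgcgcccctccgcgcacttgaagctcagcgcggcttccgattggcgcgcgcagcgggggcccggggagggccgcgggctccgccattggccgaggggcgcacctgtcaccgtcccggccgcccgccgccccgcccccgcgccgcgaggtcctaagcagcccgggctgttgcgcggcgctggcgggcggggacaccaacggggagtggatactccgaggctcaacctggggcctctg
SLCO4A1-AS1: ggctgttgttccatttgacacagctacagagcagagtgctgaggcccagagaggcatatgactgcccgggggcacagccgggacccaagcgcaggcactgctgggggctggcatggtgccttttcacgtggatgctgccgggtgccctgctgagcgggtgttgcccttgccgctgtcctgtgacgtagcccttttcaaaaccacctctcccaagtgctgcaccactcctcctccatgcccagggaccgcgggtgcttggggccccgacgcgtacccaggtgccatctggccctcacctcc
PRKCQ: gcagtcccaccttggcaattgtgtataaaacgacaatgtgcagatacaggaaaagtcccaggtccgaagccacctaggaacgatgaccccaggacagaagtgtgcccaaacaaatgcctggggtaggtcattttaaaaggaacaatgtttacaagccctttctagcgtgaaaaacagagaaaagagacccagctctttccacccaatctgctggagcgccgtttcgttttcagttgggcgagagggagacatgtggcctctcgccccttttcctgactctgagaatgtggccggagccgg

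HOXA-AS2 and SLC9A3-AS1, which fell in MCF10A, lay at the extremes of these 6 windows, with 3 CpG and 36% G and C in the first and 61 CpG and 82.3% in the second. MNX1-AS1 had 44 CpG and 77.7%, MYLK-AS1 14 and 53.7%, SLCO4A1-AS1 13 and 64.7%, and the window of PRKCQ 11 and 51.3%.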

How the data were processed

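Per the paper's methods, paired-end reads of 76 nt from the transduced lines were placed on hg19 by Rsubread, assigned to UCSC genes by featureCounts and normalized in edgeR. The authors deposited log2 CPM for 13842 rows, which hold a prior count of 2, scaled by library size. The strand setting, the filter on low values and the tool versions are not given in the sources used here. In the deposited table each row reached at least 0.916 CPM in its second-highest library.

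CPM and whole reads were recovered by taking the prior count away (100% of values within 0.05 of a whole read). A linear model of 4 group means was fitted to the log2 values of the 8 libraries (limma 3.58.1, R 4.3.3, eBayes with a trend, prior degrees of freedom 7.98), and p-values of each of 5 contrasts were adjusted by Benjamini-Hochberg over all rows. Calls needed an adjusted p below 0.01 as well as over 2-fold. On simulated data the steps recovered 99.5% (MCF10A) and 98% (DCIS.COM) of 200 changed genes among 13842, with 0 called in error. These values hold only for the levels, sizes of change and spread that were simulated. They do not give the rates for the real libraries, whose spread may be larger. Recovery for the antisense RNAs alone, or for rows of low level, was not tested. Intervals of read ratios are exact at 95% and cover counting error only. Tables used Python 3.11.15, pandas 2.3.3 and scipy 1.17.1, positions GENCODE 44 lifted to GRCh37, and promoters RefSeq on GRCh38.p14.

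The antisense RNAs and the lists were chosen with earlier results of these data known. The text names, among those called and at 1 CPM or more in the higher group, the 5 largest in each direction for each vector comparison and between the lines with both vectors, and further those called with both vectors' comparisons or with their sense gene, the 10 highest in level and the members of 4 lists. Others are marked where they are named. Other pseudocounts, filters, scalings, models and thresholds, fits of fewer libraries and a replicate block were tried as alternatives, as was leaving out 1 library at a time.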

Additional observations from a re-analysis of the deposited data

Results flagged for a closer look

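For 11 antisense RNAs the response to the MALINC1 vector differed between the cell lines, as log2 fold change in DCIS.COM minus that in MCF10A, by limma at an adjusted p below 0.01 and by over 2-fold. SLC9A3-AS1 (2.28), HOXA-AS2 (1.73), DCST1-AS1 (1.52), HMGN3-AS1 (1.18), IQCH-AS1 (1.07) and ASB16-AS1 (1.01) had the lower value in MCF10A, where all 6 lay below 0, and values above 0 in DCIS.COM. PRKCQ-AS1 (-2.32), SLCO4A1-AS1 (-2.24), SNAI3-AS1 (-1.82), EPB41L4A-AS1 (-1.33) and MNX1-AS1 (-1.02) had the higher value in MCF10A. The PRKCQ-AS1 and MNX1-AS1 differences came with a rise in MCF10A from 5 reads and from a mean of 0.458 CPM. SLCO4A1-AS1 had 3 reads in MCF10A pLOC-empty and 4 in MCF10A pLOC-MALINC1, too few to show a fall there. Its difference therefore sets the DCIS.COM fall against values near the floor. Both SLCO4A1-AS1 and SNAI3-AS1 passed the filter through DCIS.COM only. ASB16-AS1 had log2 fold changes of -0.66 and 0.35 in MCF10A and DCIS.COM, HMGN3-AS1 -0.96 and 0.21, and IQCH-AS1 -0.90 and 0.17. The difference was called under every alternative run for EPB41L4A-AS1, HOXA-AS2, SLC9A3-AS1 and DCST1-AS1. It was lost under 11 alternatives for MNX1-AS1, 10 for HMGN3-AS1, 8 for ASB16-AS1, 7 for SLCO4A1-AS1, 4 for IQCH-AS1 and 1 each for SNAI3-AS1 and PRKCQ-AS1. Among them, MNX1-AS1 was not called without MCF10A pLOC-empty replicate 2 (-0.86), MCF10A pLOC-MALINC1 replicate 1 (-0.86), or any of the 4 DCIS.COM libraries (-1.04 to -1.0). SLCO4A1-AS1 was not called without either MCF10A pLOC-MALINC1 replicate (-2.35 and -2.14), either DCIS.COM pLOC-empty replicate (-2.19 and -2.29) or DCIS.COM pLOC-MALINC1 replicate 2 (-1.94).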

How the results depend on the processing

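No named antisense RNA that was called changed the sign of its value under the alternatives run. The balance of higher and lower calls did turn where it was nearly even. With MALINC1 in MCF10A it was 5 higher and 6 lower, but 4 and 2 with quantile normalization, 5 and 4 without MCF10A pLOC-empty replicate 2, and 5 and 5 without either DCIS.COM pLOC-empty replicate. For the difference of responses it was 6 and 5, but 3 and 4 at a pseudocount of 0.5 CPM, 4 and 6 and 5 and 6 without MCF10A pLOC-empty replicates 1 and 2, 5 and 5 without DCIS.COM pLOC-MALINC1 replicate 1 and 6 and 6 with the block. In DCIS.COM it was 0 and 4, but 11 and 10 at an adjusted p below 0.05 with any fold change. Counts of calls are given in the order MALINC1 in MCF10A, MALINC1 in DCIS.COM, the lines with pLOC-empty, the lines with pLOC-MALINC1 and the difference of responses, where the main counts are 11, 4, 41, 53 and 11. A pseudocount of 0.5 CPM gave 3, 2, 33, 35 and 7, and one of 1 CPM gave 1, 1, 24, 16 and 5. Quantile normalization gave 6, 4, 35, 32 and 7. The fit on the compared groups alone gave 3, 3, 42 and 52. An adjusted p below 0.05 with any fold change gave 49, 21, 95, 105 and 31, and below 0.01 with any fold change 29, 10, 81, 91 and 17. Leaving out 1 library at a time gave 9 to 13, 1 to 4, 40 to 44, 46 to 57 and 8 to 12, the lone library of a group being taken to vary like the others. The filter at a mean of 1 CPM, median-of-ratios scaling, a library size without RN7SL1 and RN7SL2 and limma voom kept each count within 1.5 times. Dropping the 0.5 CPM filter could change nothing, because it removed no row, so that setting is no separate check. Without RN7SL1 and RN7SL2 the median of all rows moved to 0.14 and 0.18 in the line comparisons, and 43 and 66 were higher against 7 and 5 lower. Over the named antisense RNAs called in MCF10A, 35 of 162 combinations of gene and setting lost the call, against 16 of 71 in DCIS.COM and 11 of 356 and 29 of 319 between the lines.

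The groups share replicate numbers. Deviations of same-numbered libraries from their group means had correlations of -0.07 to 0.04 over all rows and of -0.0989 to 0.157 over the antisense RNAs. With 2 libraries a group and low counts for most antisense RNAs, these values cannot decide whether same-numbered libraries were paired. With the replicate number as a block the counts were 9, 4, 42, 53 and 12.

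Depth limits the low members most: 1 CPM equalled 20.9 to 35.9 reads a library, and 83 of 150 had a mean under 2 CPM.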
